A study of Mus musculus with 26 samples.

Results

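The genes described here are 10 transcription factors known for setting or keeping endothelial identity. Erg, Fli1 and Ets1 belong to the ETS family, Sox7, Sox17 and Sox18 form the SOXF group, Gata2 and Gata6 are GATA zinc finger factors, Vezf1 is a zinc finger factor of vascular endothelium and Tal1 is a basic helix-loop-helix factor. They were picked by name and are 10 of the 21119 gene symbols in the deposited count table. All 10 were in the table, and all 10 passed the filter on low counts that left 13884 genes for testing.

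The study sequenced RNA of 26 aortic samples from C57BL6/J mice, with no other allele, age or sex given in the sample labels. All mice had a wound made by mechanical pressure in the abdominal aorta, including the mice that gave the uninjured segment. For a flush, RLT lysis buffer was run through the lumen so that the cells lining it lyse first. The group called uninjured 48 h is the thoracic aorta, flushed in 9 mice at 48 h after wounding. Its counterpart, injured 48 h, is the wounded abdominal segment of those 9 mice. The group called injured 3 h is the wounded abdominal segment of 5 further mice, flushed at 3 h. The tissue 48 h samples are what remained of the abdominal vessel after flushing, homogenized, in 3 of the 9 mice, and are called the wall here. Every library came from 1 mouse, and the mice fell into 3 experimental batches. The uninjured segment was thoracic and the injured segment abdominal throughout, so injury and position along the aorta cannot be told apart in any comparison with the uninjured flush.

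The genes lie, in GRCm38 with GENCODE M21, at chr16:95359169-95586593 (Erg, - strand), chr9:32422204-32542861 (Fli1, -), chr9:32636221-32757820 (Ets1, +), chr14:63943673-63950732 (Sox7, +), chr1:4490931-4497354 (Sox17, -) and chr2:181669836-181671640 (Sox18, -). Gata2 lies at chr6:88193891-88207032 (+), Vezf1 at chr11:88068279-88084729 (+), Tal1 at chr4:115056426-115071755 (+) and Gata6 on chromosome 18. Counts are per gene and so cover all exons of each. Sox17 shares 804 exon bases with Gm37587 on the opposite strand and Gata6 shares 93 with 1010001N08Rik, and since the use of strand in counting is not given in the sources used here, reads of these partners cannot be told apart there.

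ETS factors bind a GGAA core that is present in the control regions of most endothelial genes, and Erg and Fli1 are the family members most closely tied to endothelium in adult vessels. SOXF factors act with Notch signalling in arterial cells. Gata2 and Tal1 are shared between endothelium and blood-forming cells, where Tal1 works in a complex with Lmo2, Ldb1, an E protein and a GATA factor. Gata6 is also known from vascular smooth muscle, mesothelium and some macrophages, and Ets1 from lymphocytes.

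Total counts ran from 1755773 to 5294304 in the uninjured flushes, from 2657169 to 4346847 in the injured 3 h flushes, from 3904901 to 11982411 in the injured 48 h flushes and from 13853003 to 15560008 in the wall. The summed level of 10 endothelial markers such as Cdh5 and Pecam1, in CPM (counts relative to library size, scaled by TMM), had medians of 12650 in the uninjured, 15030 in the injured 3 h and 10150 in the injured 48 h flushes, against 2579 in the wall. The summed level of 10 smooth muscle markers was 265.4 to 1946 CPM across the 3 kinds of flush and 29710 to 30890 CPM in the wall. The library of the injured 48 h flush of mouse E2A stood apart from the other 8 of its group. Its 8 fibroblast markers summed to 10460 CPM against a group median of 711.4, its 6 mesothelial markers to 538.0 against 0.2528, its 8 macrophage markers to 5359 against 1186, and its endothelial markers to 7012, the lowest of the group. For the injured 48 h against the uninjured flush, values of Gata6, Gata2, Ets1, Sox7, Sox18 and Tal1 are also given without it. Counts of called markers include it. At 3 h, the flushes held 465.9 to 955.3 CPM of 8 megakaryocyte and platelet markers and 275.0 to 3169 CPM of 8 erythroid markers, against 55.09 to 124.3 and 28.21 to 446.0 in the uninjured flushes.

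**Figure D1:**
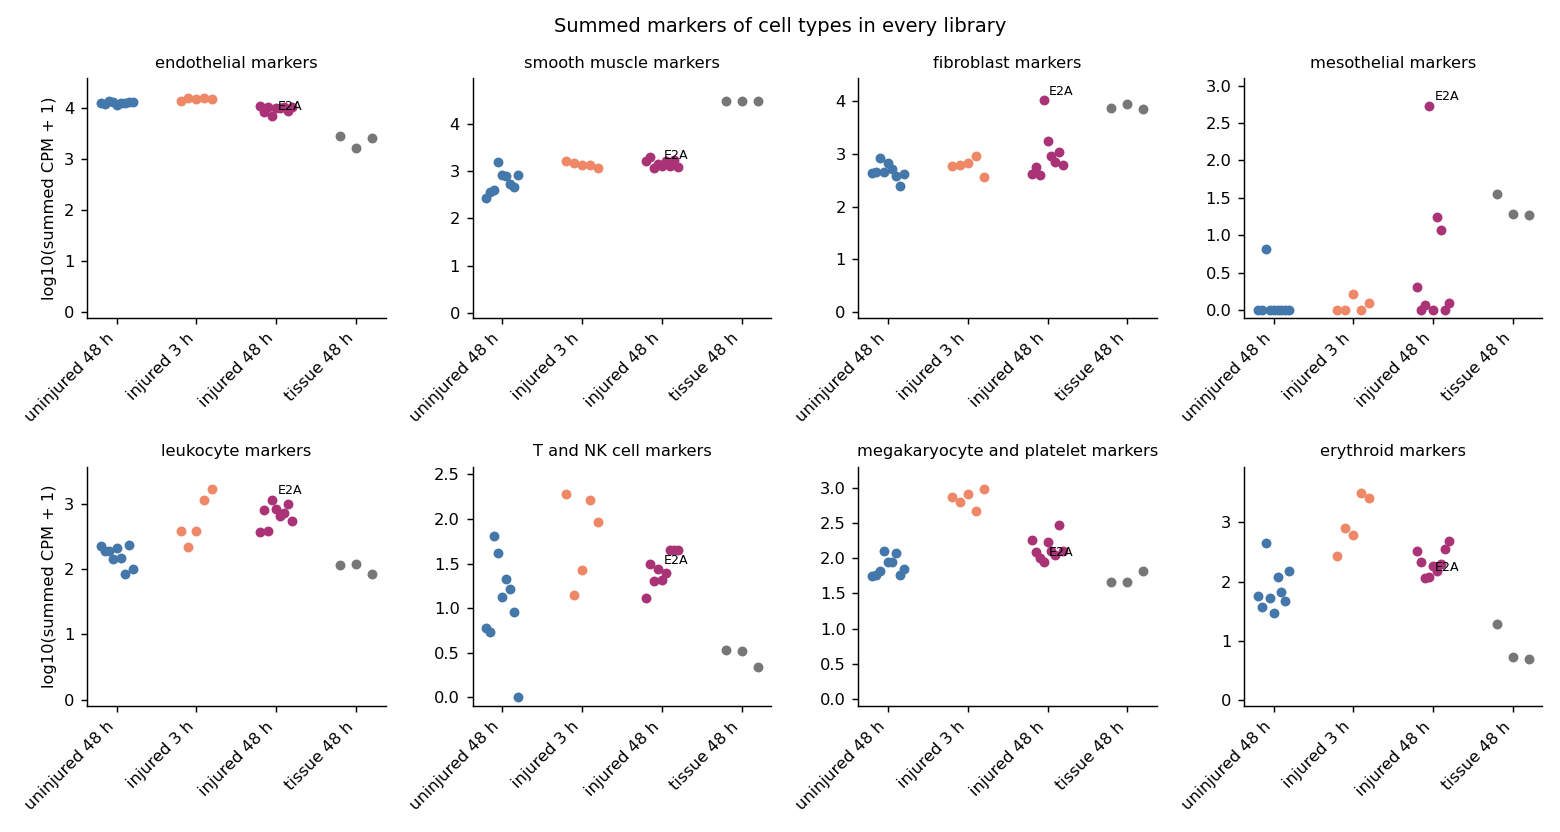
Summed level of 8 of the marker lists in every library, as log10(summed CPM + 1). Each point is 1 library, coloured by group, and the injured 48 h library of mouse E2A is labelled; it lies highest of its group for fibroblast, mesothelial and leukocyte markers (10460, 538.0 and 1153 CPM) and lowest for endothelial markers (7012 CPM).

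Erg had the highest level of the 10 factors in every group when levels were set per kilobase of the union of its exons. In the uninjured flush, Erg stood at 222.5 ± 32.98 CPM per kb (mean ± SD, n = 9), followed by Sox18 at 110.7 ± 16.09 and Fli1 at 73.3 ± 13.05. The libraries of Erg and Sox18 did not overlap, nor did those of Sox18 and Fli1. Sox7, Vezf1, Gata6, Gata2 and Sox17 came next, from 62.38 ± 7.112 down to 41.97 ± 7.767 CPM per kb, and each overlapped with its neighbours in that order. Tal1 stood at 24.79 ± 2.603 and Ets1 at 4.757 ± 1.763 CPM per kb, and Ets1 lay below every other factor in every uninjured library. With the longest transcript as the length, Erg and Sox18 stayed at the top and Tal1 and Ets1 at the bottom, but Gata6 moved from the 6th to the 3rd place. In the injured 3 h and 48 h flushes, Erg again led with 267.5 ± 70.41 (n = 5) and 193.1 ± 29.85 CPM per kb (n = 9), Sox18 was second, and Ets1 was last with 16.46 ± 6.555 and 8.334 ± 2.14. In both, Sox18 overlapped with Fli1 and Tal1 with Ets1. By the longest transcript, Tal1 rather than Ets1 was last at 3 h. The wall had another order: Erg led with 138.8 ± 17.53 CPM per kb (n = 3), Vezf1 was second with 73.73 ± 5.353, and Tal1 was last with 4.324 ± 0.9949. Sox18 was 4th there with 17.8 ± 9.117 CPM per kb and overlapped with Gata6 above it and Fli1 below it.

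**Figure D2:**
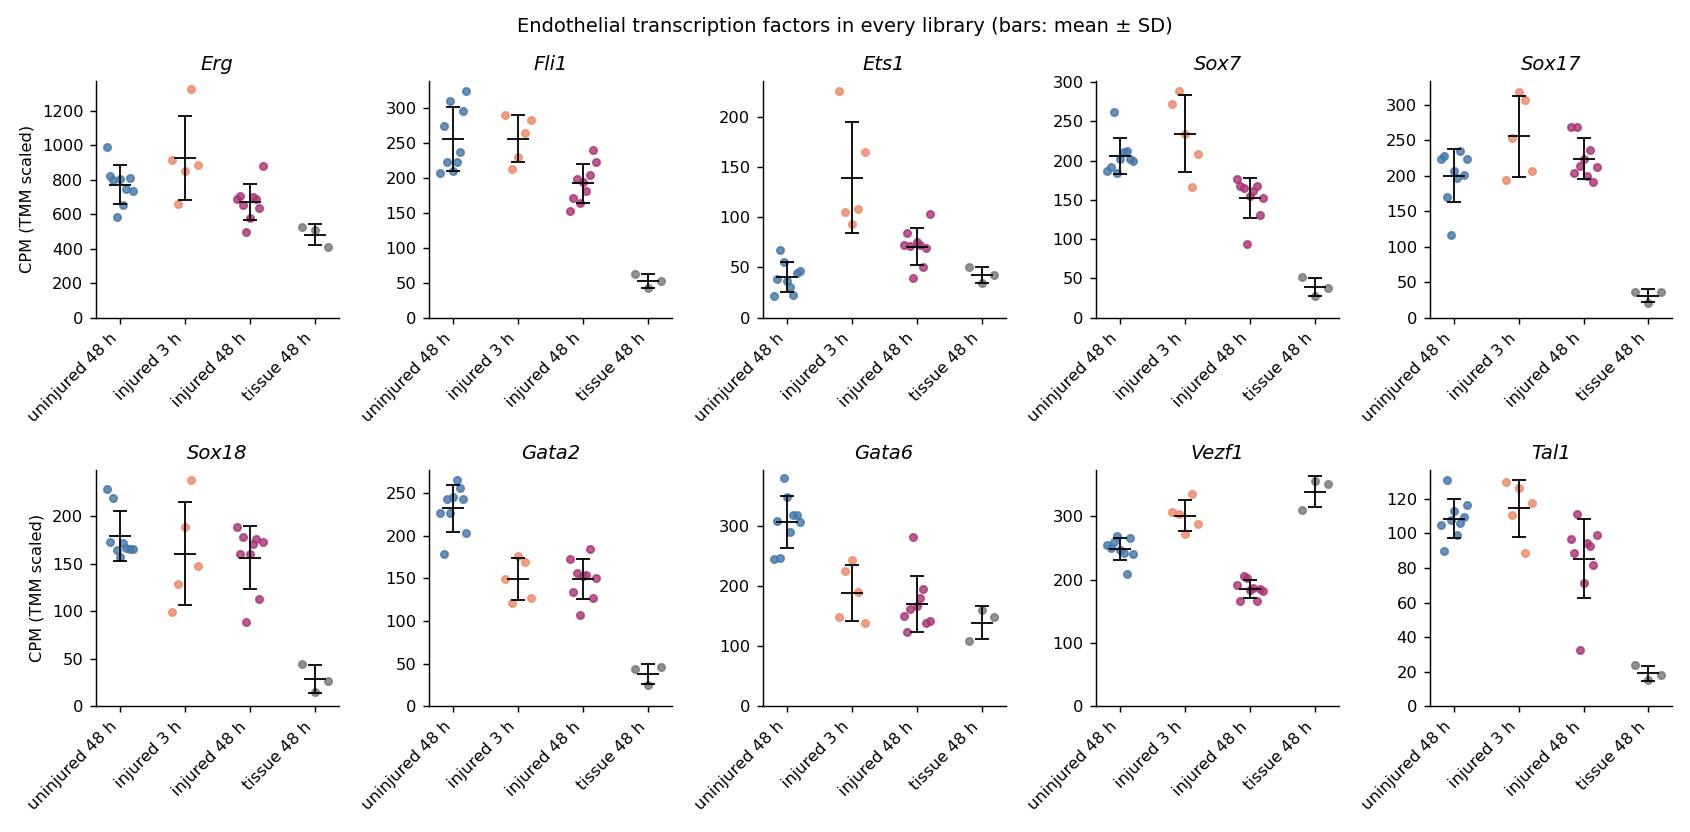
CPM of the 10 factors in every library of the 4 groups (9 uninjured 48 h, 5 injured 3 h, 9 injured 48 h and 3 tissue 48 h), with bars for the mean ± SD; each panel has its own axis from 0. By group mean, Ets1 is highest in the injured 3 h flushes (92.88 to 225.5 CPM), Gata2 and Gata6 are highest in the uninjured flushes, and Vezf1 is highest in the wall (310.9 to 355.5 CPM).

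Sequence upstream of the gene start was in the RefSeq promoter table (GRCm38.p6) for 4 of the 10 factors: Erg, Gata2, Vezf1 and Tal1. The 250 bases before the start are shown for the 3 of them whose level was lower in the injured 48 h than in the uninjured flush of all 9 mice, with motif matches in capitals. Both strands were searched for 4 motifs, and no matches overlapped. ETS factors were searched by their core with a flanking base, GGAAG. GATA factors were searched by the short form of their known binding motif, GATAA. For SOX factors the letters searched were those of the common core of the family, ACAAT. Basic helix-loop-helix factors such as Tal1 were searched by the E-box, whose letters are CANNTG.
Gata2, chr6:88193641-88193890, + strand: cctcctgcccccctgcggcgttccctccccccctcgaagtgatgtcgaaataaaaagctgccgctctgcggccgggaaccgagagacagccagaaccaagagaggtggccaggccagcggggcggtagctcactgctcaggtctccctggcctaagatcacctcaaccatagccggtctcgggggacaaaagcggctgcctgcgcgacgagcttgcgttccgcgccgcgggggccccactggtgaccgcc
Vezf1, chr11:88068029-88068278, + strand: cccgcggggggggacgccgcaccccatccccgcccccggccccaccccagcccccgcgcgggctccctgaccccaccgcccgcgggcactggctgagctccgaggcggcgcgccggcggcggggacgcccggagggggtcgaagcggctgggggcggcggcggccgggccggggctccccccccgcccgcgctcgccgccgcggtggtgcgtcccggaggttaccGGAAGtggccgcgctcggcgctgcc
Tal1, chr4:115056176-115056425, + strand: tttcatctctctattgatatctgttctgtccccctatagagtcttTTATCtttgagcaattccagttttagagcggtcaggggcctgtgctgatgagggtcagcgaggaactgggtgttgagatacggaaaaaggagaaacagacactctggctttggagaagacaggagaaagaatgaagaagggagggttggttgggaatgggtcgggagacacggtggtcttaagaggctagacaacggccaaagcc
The Vezf1 window held 1 ETS match, a motif that 63.6% of 27025 promoter windows of this length held. The Tal1 window held 1 GATA match on the opposite strand, TTATC as printed, a motif found in 23.0% of the windows. The Gata2 window held none of the 4 motifs, nor did that of Erg at chr16:95586594-95586843 on the - strand. The SOX motif was in 28.3% and the E-box in 66.0% of all windows. The Vezf1 window was 85.6% G and C with 42 CpG sites, and 0.1% of all windows were as rich in G and C. Gata2 had 67.2% and 22 CpG sites, Tal1 48.8% and 6, and Erg 48.8% and 14, against medians of 52.0% and 6 over all windows.

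At 48 h, the injured flush held less Gata6, Gata2, Vezf1, Sox7 and Fli1 and more Ets1 than the uninjured flush of the same mice. Of the 10 factors, 1 was called higher, 5 were called lower and 4 were not called, where a call is an adjusted p under 0.05 from edgeR's quasi-likelihood test with Benjamini-Hochberg adjustment over the 13884 genes. Over all genes tested, 42.7% were called, 24.6% higher and 18.0% lower. The median log2 fold change was -0.38 for the 10 factors and 0.18 for all genes. Counts of mice and the overlap of groups are given below for the factors alone and were not made over all genes. In these bulk libraries, fewer cells of a type and less RNA per cell cannot be told apart.

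Gata6, a GATA factor of endothelium and smooth muscle, ran from 245.7 to 380.9 CPM (median 308.8) in the uninjured and from 124.2 to 281.5 (median 161.6) in the injured 48 h flushes. The injured libraries lay below the uninjured range but for that of mouse E2A, at 281.5 CPM. The log2 fold change of Gata6 was -0.85 ± 0.14 (SE; adjusted p = 3.32e-05), a 1.80-fold lower level, and it was lower in 9 of 9 mice. Gata2, which in endothelium acts on adhesion and lineage genes, ran from 178.0 to 265.4 CPM (median 242.6) uninjured and from 106.5 to 184.4 (median 152.8) injured. The groups overlapped through the injured library of mouse E3A, at 184.4 CPM, and the uninjured library of mouse E1B, at 178.0. It was lower by 0.64 ± 0.11 on the log2 scale (adjusted p = 9.35e-05), in 9 of 9 mice. Without the E2A library of the injured flush, the log2 fold change of Gata6 was -0.96 (adjusted p = 1.09e-06). That of Gata2 was then -0.58 (adjusted p = 0.000156).

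Vezf1 had the smallest standard error of the 10 factors. It ran from 209.0 to 269.5 CPM (median 250.7) in the uninjured and from 165.8 to 206.4 (median 184.5) in the injured flushes, and the groups did not overlap. Within mice, the log2 ratio of Vezf1 lay between -0.60 and -0.33 in all 9, with a fitted value of -0.42 ± 0.06 (adjusted p = 4.63e-06). Sox7, the SOXF member that is active early in vessel formation, ran from 183.6 to 262.6 CPM (median 201.9) against 94.23 to 176.3 (median 161.7). Its groups did not overlap either, and its log2 fold change was -0.43 ± 0.12 (adjusted p = 0.00612). Without the injured E2A library, the lowest at 94.23 CPM, Sox7 had -0.36 (adjusted p = 0.00916).

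Among the ETS factors, Fli1 ran from 206.9 to 323.8 CPM (median 236.9) uninjured and from 151.9 to 239.2 (median 194.3) injured. The groups overlapped, yet Fli1 was lower in the injured flush of 9 of 9 mice, with a log2 fold change of -0.41 ± 0.11 (adjusted p = 0.00325). Ets1, a broadly expressed ETS factor that rises in activated endothelium, moved the other way. It ran from 21.93 to 67.55 CPM (median 38.53) uninjured and from 39.69 to 102.9 (median 72.01) injured. Its log2 fold change was 0.81 ± 0.21 (adjusted p = 0.00367), and it was higher in 8 of 9 mice. The exception was mouse E2A, with 55.07 CPM uninjured and 39.69 injured. Without the injured E2A library, the log2 fold change of Ets1 was 0.90 (adjusted p = 0.00121).

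The other 4 factors were not called. Erg had a log2 fold change of -0.20 ± 0.12 (adjusted p = 0.153), with lower values in 7 of 9 mice. Sox17, the SOXF member most closely tied to arterial endothelium, had 0.16 ± 0.13 (adjusted p = 0.298), and Sox18 had -0.19 ± 0.17 (adjusted p = 0.371). Without the injured E2A library, Sox18 had -0.11 (adjusted p = 0.6). Tal1 had lower values in 9 of 9 mice, with -0.34 ± 0.15 (adjusted p = 0.0616). The injured E2A library held 32.27 CPM of Tal1, against 71.52 to 111.0 in the other 8, and without it the log2 fold change was -0.23 (adjusted p = 0.0542). In the authors' deposited table Tal1 was lower with a log2 fold change of -0.38 (adjusted p = 0.0267), and the 6 calls above had the same direction there, where 46.5% of genes were called.

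**Figure D3:**
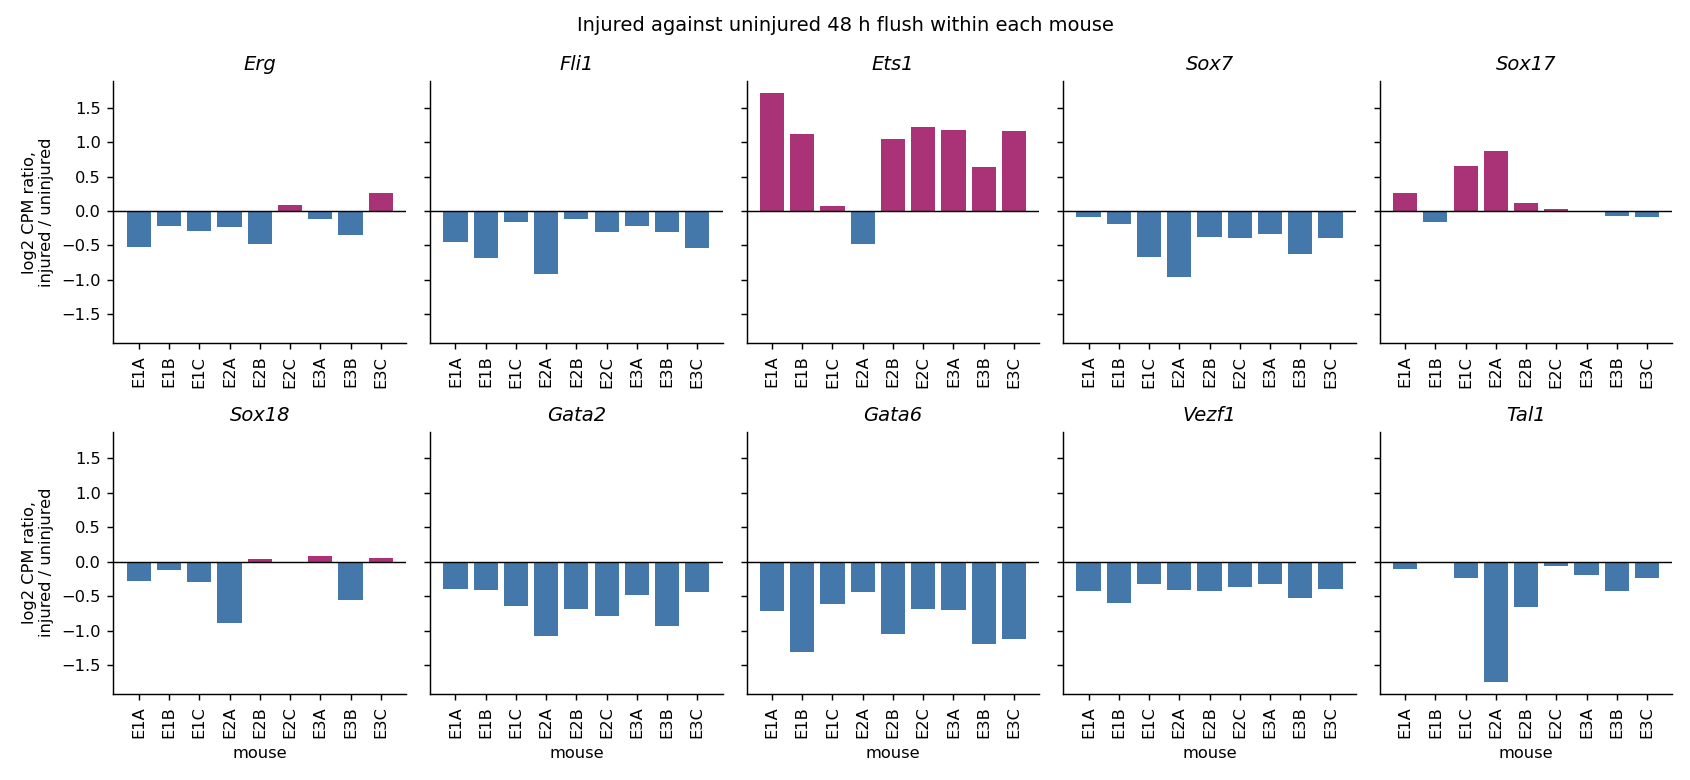
Log2 ratio of CPM between the injured and uninjured 48 h flush of each of the 9 mice, 1 bar per mouse and 1 panel per factor, on a shared axis. Bars of Gata2, Gata6, Vezf1, Sox7, Fli1 and Tal1 point down in all 9 mice, Vezf1 between -0.60 and -0.33, and those of Ets1 point up in all but mouse E2A. The share of all genes that were lower in all 9 mice was not counted.

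Within each of the 3 experimental batches, the 6 called factors kept their direction. Batches 1, 2 and 3 alone gave log2 fold changes of -0.84, -0.69 and -0.98 for Gata6, -0.44, -0.82 and -0.60 for Gata2, and -0.40, -0.39 and -0.41 for Vezf1. They gave -0.30, -0.52 and -0.43 for Sox7, -0.39, -0.45 and -0.35 for Fli1, and 0.83, 0.64 and 1.02 for Ets1. Markers of other cells moved with these results: 6 of 10 endothelial markers were called lower and 3 higher, and 6 of 6 leukocyte, 7 of 7 macrophage, 7 of 10 smooth muscle and 7 of 8 fibroblast markers were called higher in the injured flush. Their part in the levels of the 10 factors was not tested. The fibroblast sum was 10460 CPM in the injured E2A library. The rest of that group, at 388.2 to 1786, overlapped with the uninjured flushes, at 247.5 to 816.9. The summed endothelial markers (median 12650 CPM uninjured) rested mostly on Pecam1 and Vwf, at 5919 and 3589 CPM on average there. Both were called lower at 48 h (log2 fold changes -0.49 and -0.51), so scaling to that sum mainly follows them. With libraries scaled so that the summed endothelial markers were equal, a setting chosen after seeing the data that moved the median of all genes by 0.42 (log2), Gata2 stayed lower (log2 fold change -0.25, adjusted p = 0.03) and Ets1 higher (1.22, adjusted p = 4.86e-05), whereas Sox17 was called higher (0.57, adjusted p = 0.00064). The calls of Gata6 (-0.40, adjusted p = 0.0773), Vezf1 (-0.001, adjusted p = 1), Sox7 (-0.04, adjusted p = 0.786) and Fli1 (0.0046, adjusted p = 0.984, a turned sign) were lost.

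At 3 h, Ets1 was far above the uninjured flush, Vezf1 slightly above it, and Gata2 and Gata6 below it. These 2 higher and 2 lower calls of 10 compare with 27.1% of all genes called, 16.1% higher and 11.1% lower. The median log2 fold change was 0.13 for the factors and 0.00 for all genes. The 3 h and 48 h injury comparisons share the uninjured libraries, and no test was made between their lists of calls.

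Ets1 stood at 225.5, 105.6, 92.88, 108.3 and 165.2 CPM in mice C1A, C1B, C2A, C2C and C3B at 3 h. The lowest of these lay above the highest uninjured library, at 67.55 CPM. The log2 fold change was 1.79 ± 0.24 (adjusted p = 4.04e-06), a 3.46-fold higher level. Of its highest libraries, C1A also held the most T and NK cell markers (188.3 CPM summed, group range from 13.12) and C3B the most leukocyte markers (1714 CPM, group range from 218.7). In the uninjured flush these sums reached 62.86 and 232.6 CPM, and 2 of 7 and 6 of 6 markers were called higher at 3 h. C2C was second in both sums, with 161.9 and 1154 CPM, and held 108.3 CPM of Ets1, and the library with the fewest of both, C1B, held 105.6. The part of blood cells in the Ets1 level was not tested. Leaving out C1A gave a log2 fold change of 1.55 (adjusted p = 3.42e-05), and leaving out C3B gave 1.72 (adjusted p = 2.77e-05). Within batches 1, 2 and 3 it was 1.91, 1.30 and 2.15, the last with 1 library at 3 h.

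Gata2 stood at 149.8, 121.2, 176.4, 169.6 and 127.5 CPM in the same order of mice, all below the lowest uninjured library (178.0). Its log2 fold change was -0.64 ± 0.14 (adjusted p = 0.00109), and -0.69, -0.51 and -0.90 within the batches. Gata6 stood at 148.1, 225.6, 243.3, 190.6 and 138.1 CPM, all below the lowest uninjured library (245.7). Its log2 fold change was -0.70 ± 0.17 (adjusted p = 0.00267), and -0.53, -0.65 and -1.21 within the batches. Both calls were kept when libraries were scaled to the endothelial markers, with -0.88 (adjusted p = 3.62e-06) for Gata2 and -0.95 (adjusted p = 0.00387) for Gata6. That scaling moved the median of all genes by -0.24 (log2), and 39.5% of calls were higher against 59.2% before. Since it shifted genes in the direction of these 2 calls, it could hardly have removed them.

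Vezf1 stood at 307.6, 304.0, 271.4, 335.7 and 288.4 CPM, all above the highest uninjured library (269.5). The log2 fold change was 0.28 ± 0.07 (adjusted p = 0.00392), and 0.25, 0.26 and 0.26 within the batches, but the call was lost with library totals alone (0.10, adjusted p = 0.327) and with scaling to the endothelial markers (0.04, adjusted p = 0.898). These settings moved the median of all genes by -0.18 and -0.24. The authors' deposited table also called 2 higher and 2 lower, with 31.1% of genes called. The remaining factors were not called. Fli1 was at 255.5 CPM in both groups on average, with a log2 fold change of 0.00 ± 0.13 whose sign changed between settings. Erg had 0.27 ± 0.14 (adjusted p = 0.149), Sox7 0.18 ± 0.14 (adjusted p = 0.363) and Sox17 0.35 ± 0.15 (adjusted p = 0.0813), which was called without C1A (0.44, adjusted p = 0.0431). Sox18 had -0.16 ± 0.21 (adjusted p = 0.62) and Tal1 0.08 ± 0.18 (adjusted p = 0.798).

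**Figure D4:**
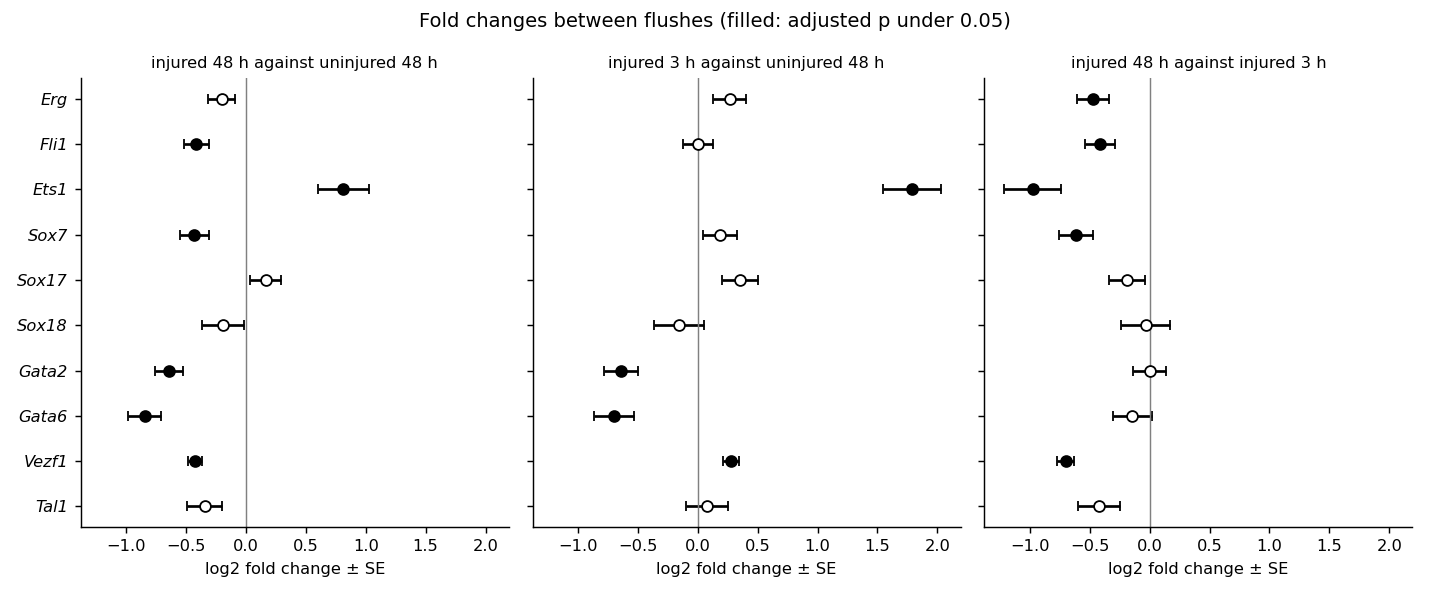
Log2 fold change ± SE of the 10 factors in the 3 comparisons between flushes, on a shared axis, with filled points for an adjusted p under 0.05. Gata2 and Gata6 lie below 0 in both injury comparisons and near 0 between 48 h and 3 h (0.00 and -0.15), and Ets1 lies at 0.81, 1.79 and -0.98.

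From 3 h to 48 h after wounding, 5 of the 10 factors were lower and none was higher. Over all genes, 18.3% were called, 9.7% higher and 8.59% lower. The median log2 fold change was -0.42 for the factors against 0.09 for all genes. Of blood cell markers, 6 of 7 erythroid, 5 of 7 neutrophil and 4 of 7 megakaryocyte and platelet markers were called lower at 48 h, and 6 of 7 macrophage markers higher. Their part in the levels of the factors was not tested. Vezf1 had a log2 fold change of -0.70 ± 0.07 (adjusted p = 6.85e-08), Ets1 -0.98 ± 0.24 (adjusted p = 0.00487) and Sox7 -0.62 ± 0.14 (adjusted p = 0.00274). Erg had -0.47 ± 0.13 (adjusted p = 0.015) and Fli1 -0.41 ± 0.12 (adjusted p = 0.0206). Of these, only Vezf1 had groups that did not overlap, 165.8 to 206.4 CPM at 48 h and 271.4 to 335.7 CPM at 3 h. Gata2 stayed at 0.00 ± 0.14 and Gata6 at -0.15 ± 0.16 (adjusted p = 0.58), both uncalled, as were Sox17, Sox18 and Tal1 (-0.19, -0.03 and -0.42). The authors' deposited table called the same number of factors lower, 5, with 22.4% of genes called.

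The calls of Erg and Fli1 rested on few libraries. Without C2C at 3 h, which held 1326 CPM of Erg against 661.2 to 916.3 in the other 4, Erg had -0.31 (adjusted p = 0.106). Without C1A or without C3B, Fli1 had -0.37 (adjusted p = 0.0671) or -0.38 (adjusted p = 0.0593). With library totals alone, 2 factors were called, and Erg (-0.21), Fli1 (-0.16) and Sox7 (-0.36) were not. Library totals called 3067 genes, 82.0% of them higher, against 53.1% of calls before. They moved the median of all genes by 0.24 (log2), opposite to the direction of the lost calls. Scaled to the endothelial markers, of which 5 of 10 were called lower and 1 higher at 48 h, none of the 5 was called. Vezf1 had -0.04 (adjusted p = 0.843), Ets1 -0.36 (adjusted p = 0.227), Sox7 0.01, Erg 0.18 and Fli1 0.24. Gata2 (0.63, adjusted p = 0.000139), Sox18 (0.60, adjusted p = 0.00439) and Sox17 (0.47, adjusted p = 0.0137) were called higher. That scaling moved the median of all genes by 0.66 (log2), and none of these values exceeded the shift. It called 6039 genes, 96.8% of them higher, so higher calls were the rule there. Within batches 1, 2 and 3, Vezf1 had -0.65, -0.65 and -0.67, Ets1 -1.08, -0.66 and -1.13, Sox7 -0.68, -0.52 and -0.45, Erg -0.16, -0.86 and -0.24, and Fli1 -0.48, -0.44 and -0.32.

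Against the wall, the flush held several times more of the SOXF factors, Gata2, Tal1 and Fli1 and somewhat more Erg, and the uninjured and injured 48 h flushes held less Vezf1. In the uninjured flush 8 factors were higher and 1 lower than in the wall, where 50.1% of all genes were called, 25.6% higher and 24.5% lower. In the injured 3 h flush 8 were higher and none lower, against 42.7% of all genes called, 23.5% higher and 19.2% lower. In the injured 48 h flush 7 were higher and 1 lower, against 35.5% called, 22.0% higher and 13.5% lower. The medians of the factors were 2.35, 2.12 and 1.92 on the log2 scale, beside -0.17, -0.02 and 0.15 for all genes. These comparisons share the 3 wall libraries, so their values are given side by side. The authors' deposited tables called 9, 9 and 7 factors in the same order, with 49.9%, 41.2% and 33.6% of genes called.

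Sox17, Sox18 and Gata2 differed from the wall by similar amounts in the uninjured flush, within their standard errors. Sox17 stood at 36.27, 21.08 and 35.87 CPM in the wall of mice E1A, E2A and E3A, against at least 117.2 CPM in any flush. Its log2 fold change was 2.69 ± 0.21 for the uninjured, 3.04 ± 0.23 for the injured 3 h and 2.85 ± 0.22 for the injured 48 h flush (adjusted p = 1.72e-10, 7e-11 and 8.95e-11). Sox18, which in mice and humans is needed for hair follicle and lymphatic vessels, stood at 44.63, 15.36 and 26.54 CPM in the wall. It had 2.64 ± 0.29, 2.48 ± 0.30 and 2.44 ± 0.29 in the same order, and no flush fell below 88.52 CPM. Sox7 stood at 51.2, 27.31 and 37.82 CPM in the wall, with 2.41 ± 0.20, 2.59 ± 0.21 and 1.98 ± 0.19.

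Gata2 stood at 43.9, 24.77 and 46.17 CPM in the wall, and its log2 fold change was 2.60 ± 0.19, 1.96 ± 0.19 and 1.96 ± 0.18. Tal1 stood at 23.69, 15.14 and 17.97 CPM, with 2.52 ± 0.25, 2.60 ± 0.26 and 2.17 ± 0.24. Fli1 stood at 62.07, 42.16 and 52.48 CPM, with 2.29 ± 0.17, 2.29 ± 0.18 and 1.88 ± 0.17. For these 6 factors no flush library reached down to the wall, and each difference was called in all 3 comparisons. The share of all genes with either property was not counted, so how unusual this is cannot be said. The 20 endothelial genes named as ETS, GATA or SOXF targets, among them Cdh5 and Tek, had medians of 2.39, 2.37 and 2.13. They include all 10 endothelial markers, so the lists are not independent. The 6 factors ran from 1.88 to 3.04 on the same scale.

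Erg, Gata6, Ets1 and Vezf1 did not share that pattern. Erg stood at 523.1, 509.0 and 411.5 CPM in the wall and its log2 fold change was 0.68 ± 0.17 (adjusted p = 0.00178), 0.95 ± 0.18 (adjusted p = 0.0002) and 0.48 ± 0.17 (adjusted p = 0.0273) in the same order of flushes. The injured 48 h libraries overlapped with the wall, and 2 of the 3 mice with both were higher. The last call was lost with the mouse as a block (0.38, adjusted p = 0.0954), with DESeq2 (0.40, adjusted p = 0.0521), with size factors by median of ratios (0.40, adjusted p = 0.0731), without the filter on low counts (0.41, adjusted p = 0.0624) and without the injured library of mouse E3C (0.39) or the wall of mouse E2A (0.52) or E3A (0.38). Gata6 stood at 109.1, 160.8 and 148.9 CPM in the wall. It was higher in the uninjured flush with 1.14 ± 0.21 (adjusted p = 7.45e-05), and not called in the injured 3 h flush with 0.44 ± 0.22 (adjusted p = 0.105) or the injured 48 h flush with 0.29 ± 0.20 (adjusted p = 0.271), although with the mouse as a block the last was called higher (0.41, adjusted p = 0.0478).

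Ets1 stood at 50.47, 34.19 and 41.96 CPM in the wall, within the range of the uninjured flush, with a log2 fold change of -0.07 ± 0.29 (adjusted p = 0.868). It was higher at 3 h with 1.72 ± 0.34 (adjusted p = 0.000246) and not called at 48 h with 0.75 ± 0.30 (adjusted p = 0.0576), a value near the threshold. It was called without any of 4 libraries, the injured 48 h E2A (0.80, adjusted p = 0.0327), the uninjured E1A (0.75, adjusted p = 0.0466) or E1C (0.75, adjusted p = 0.0426), or C1A at 3 h (0.75, adjusted p = 0.0435), the last 3 of which are outside the comparison. Vezf1 was the only factor lower in the flush. It stood at 310.9, 355.5 and 351.3 CPM in the wall, above every uninjured and injured 48 h library, with -0.45 ± 0.08 (adjusted p = 6.93e-05) and -0.87 ± 0.08 (adjusted p = 2.5e-09). At 3 h it was not called, with -0.17 ± 0.09 (adjusted p = 0.134), but the authors' deposited table called it lower (-0.27, adjusted p = 0.0111), and so did the fit without the wall of mouse E1A (-0.28, adjusted p = 0.0335).

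**Figure D5:**
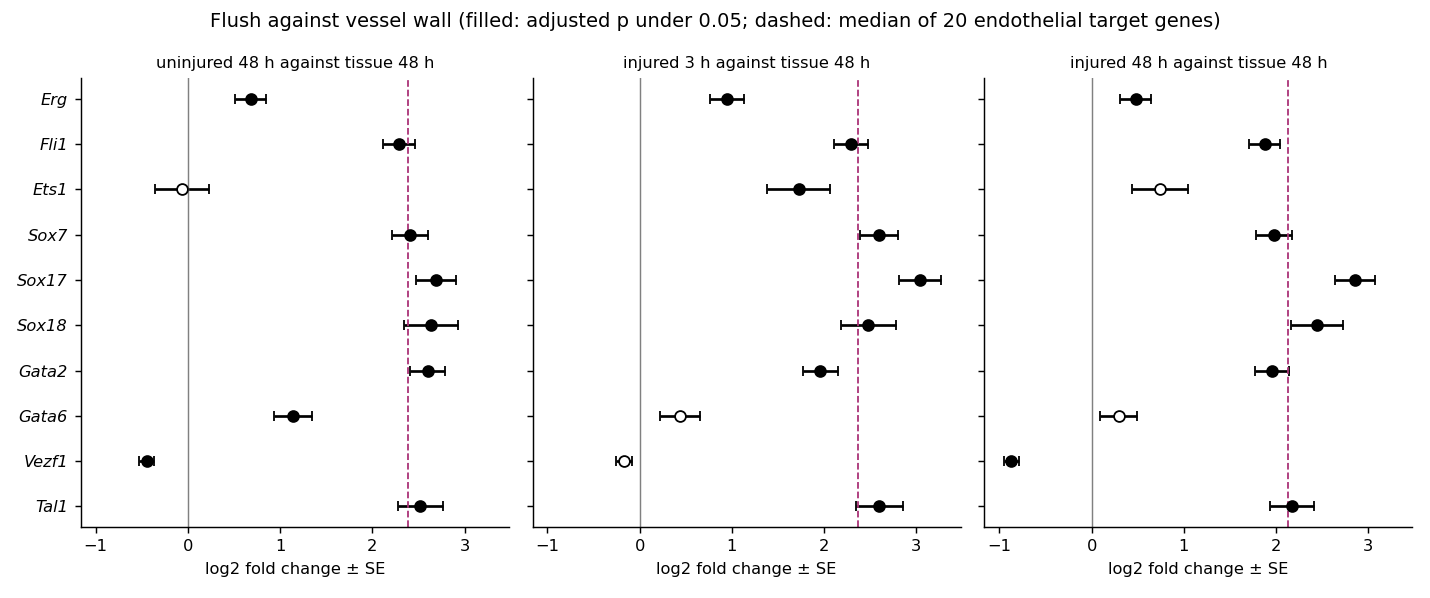
Log2 fold change ± SE of the 10 factors in each flush against the wall, on a shared axis, with filled points for an adjusted p under 0.05 and a dashed line at the median of 20 endothelial target genes (2.39, 2.37 and 2.13). The 20 targets include all 10 endothelial markers. Of the factors, 6 lie between 1.88 and 3.04, with Sox17 (2.69, 3.04 and 2.85) right of the line in each panel. Erg (0.48 to 0.95), Gata6, Ets1 and Vezf1 (-0.87 to -0.17) lie left of it.

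All 10 smooth muscle markers were called higher in the wall than in each flush. Some blood cell markers went the other way. Of these, 6 of 6 leukocyte and 7 of 7 erythroid markers were called higher in both injured flushes than in the wall. In the uninjured flush, 1 of 6 and 5 of 7 were. Of 7 macrophage markers, 4 were called higher in the injured 48 h flush, but 2 were called lower at 3 h and 4 in the uninjured flush. Of 5 mast cell markers, 1 was higher in each flush, and 1, 3 and 2 were lower in the same order. The part of these cells in the differences of Gata2 and Tal1 was not tested, and the part of each cell type in the levels of Erg, Gata6, Ets1 and Vezf1 there was not tested. Within batches the differences of Erg were 0.70, 0.38 and 0.88 for the uninjured, 0.56, 1.05 and 1.07 for the injured 3 h and 0.40, 0.19 and 0.83 for the injured 48 h flush, with 1 wall library in each. Scaled to the summed endothelial markers, Erg was lower in all 3 flushes than in the wall (-1.83, -1.81 and -1.63, adjusted p of 7.55e-09 or less), as were Gata6 (-1.39, -2.35 and -1.79), Ets1 (-2.53, -0.94 and -1.30) and Vezf1 (-2.96, -2.92 and -2.96), each called in all 3. That scaling moved the median of all genes by -2.49, -2.73 and -2.07 (log2) in the same order of flushes. It called 12106, 11343 and 10277 genes, and only 9.6%, 6.6% and 7.9% of these calls were higher. A lower call was thus the rule among called genes there and does not set these factors apart. On that scale Sox7 (-0.01, -0.06 and -0.05) and Tal1 (0.07, -0.08 and 0.11) were not called.

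Genes that share families, complexes or targets with the 10 factors were counted in lists chosen with earlier results of these data known. Of all genes, 42.7% were called at 48 h against the uninjured flush, 24.6% higher and 18.0% lower. At 3 h the shares were 27.1%, 16.1% and 11.1%, and between 48 h and 3 h 18.3%, 9.7% and 8.59%. These shares apply to all lists below, none of which was tested as a set. Rose and fell mean above or below the uninjured thoracic flush, where injury and aortic position cannot be told apart. Of 16 other ETS factors tested, 7 were higher and 1 lower in the injured 48 h than in the uninjured flush (median 0.24 beside 0.18 for all genes), and 7 were higher and 1 lower at 3 h (median 0.42 beside 0.00, or 0.61 with the genes at 0 in a group set to a bound of 3 counts over it). Elf4, an ETS factor of lymphocytes and endothelium, rose from 46.74 ± 17.23 CPM (SD, n = 9) to 103.6 ± 16.61 (n = 9) at 48 h and 123.9 ± 14.63 (n = 5) at 3 h, with log2 fold changes of 1.14 ± 0.14 and 1.40 ± 0.16 (SE; adjusted p = 1.07e-06 and 4.78e-07). Elf1 was at 83.19 ± 7.589, 116.9 ± 16.51 and 146.4 ± 26.07 CPM in the same order (adjusted p = 0.000175 and 3.08e-06). Spi1, the ETS factor of myeloid and B cells, was found in 1 of 9 uninjured and 9 of 9 injured 48 h libraries, at 0.1391 ± 0.4172 and 11.85 ± 5.228 CPM (adjusted p = 1.07e-05). Against the wall, Elk3, an ETS repressor of vessels, was higher in all 3 flushes, at 263.5 ± 13.34 CPM uninjured against 114.3 ± 18.43 (n = 3; log2 fold change 1.20 ± 0.12).

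Few other SOX and GATA genes passed the filter. Of 6 SOX genes, 2 were higher and 1 lower at 48 h: Sox6 (29.77 ± 16.89 against 6.079 ± 5.676 CPM) and Sox4 (15.45 ± 6.734 against 1.747 ± 3.638) rose, and Sox5 fell (26.96 ± 10.09 against 50.77 ± 22.48). The median was 2.59, or 1.61 with Sox9 and Sox12, which had no counts in the uninjured libraries, at their bound. Sox13 was the only one higher in all flushes than in the wall, at 165.2 ± 48.72 CPM uninjured against 41.76 ± 13.13. Of Gata3 and the GATA cofactor Zfpm2, neither was called between flushes (median 0.03 at 48 h and -0.50 at 3 h against the uninjured flush).

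Of 12 tested partners and inhibitors of Tal1, 2 were higher and 4 lower at 48 h than in the uninjured flush, and 2 higher and 6 lower at 3 h (medians -0.31 and -0.63, the same with Runx1 at its bound). The E proteins, which pair with Tal1, moved in opposite directions. Tcf4 rose from 162.0 ± 34.06 CPM to 351.3 ± 34.34 at 48 h and 305.9 ± 32.15 at 3 h, with log2 fold changes of 1.12 ± 0.10 and 0.92 ± 0.11 (adjusted p = 4.7e-09 and 9.53e-07). Tcf12 fell from 361.3 ± 63.14 CPM to 206.2 ± 16.85 and 201.9 ± 41.2, by 0.81 ± 0.10 and 0.84 ± 0.12 on the log2 scale (adjusted p = 6.9e-07 and 8.72e-06). Runx1, a blood and hemogenic endothelium factor, had no counts in the 9 uninjured libraries and 40.98 ± 19.68 CPM in the injured 48 h flush, detected in 9 of 9. Lmo2, the bridge of the Tal1 complex, was at 592.7 ± 121.4 CPM at 48 h and 336.4 ± 94.39 at 3 h, a log2 fold change of 0.82 ± 0.17 between them (adjusted p = 0.00114).

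Of 14 other endothelial factors tested, 4 were higher and 3 lower at 48 h (median -0.07) and 8 higher and 2 lower at 3 h (median 0.44) than in the uninjured flush, and 2 were higher and 7 lower at 48 h than at 3 h (median -0.24). Nfatc1, a calcium-dependent factor of valve endothelium, was at 76.5 ± 18.92 CPM uninjured, 251.6 ± 108.3 at 3 h and 93.09 ± 7.196 at 48 h. Mef2d stood, in the same order of groups, at 144.2 ± 28.54, 249.9 ± 36.71 and 131.5 ± 7.331 CPM. Epas1, the endothelial HIF factor, fell from 5485 ± 992.2 CPM uninjured to 3481 ± 421.5 at 48 h, by 0.66 ± 0.11 on the log2 scale (adjusted p = 5.28e-05). Nr2f2, a venous factor, had no counts in the thoracic, uninjured libraries and 30.33 ± 26.94 CPM in the abdominal flush at 48 h. It stood at 21.52 ± 18.48 CPM at 3 h and was highest in the wall, at 110.0 ± 16.24 CPM.

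All 10 endothelial markers are among the 20 target genes. The 20 had 4 higher and 10 lower calls at 48 h against the uninjured flush (median -0.38). At 3 h they had 6 higher and 4 lower calls (median 0.02), and between 48 h and 3 h they had 2 higher and 9 lower (median -0.39). Eng, a TGF-beta co-receptor of endothelium, fell from 403.4 ± 86.79 CPM to 197.1 ± 22.58 at 48 h, and Emcn, an endothelial sialomucin, from 261.0 ± 97.55 to 99.81 ± 34.37. Flt1, a VEGF receptor, rose from 46.91 ± 34.35 to 173.9 ± 45.16 CPM at 48 h and 278.2 ± 81.05 at 3 h. Cdh5, the junction cadherin kept on by Erg, stood at 1096 ± 77.58 CPM uninjured, 1828 ± 93.02 at 3 h and 1315 ± 236.3 at 48 h. Of 16 arterial genes of the SOXF and Notch pathways, 3 were higher and 6 lower at 48 h than uninjured (median -0.17) and 5 higher and 3 lower at 3 h (median 0.21). Nrp1, Efnb2 and Hey2 fell at both times, Efnb2 from 1606 ± 362.8 CPM to 450.5 ± 79.22 at 3 h and 767.1 ± 125.3 at 48 h. Gja5, an arterial connexin, was higher in every flush than in the wall, at 1539 ± 249.9 CPM uninjured against 207.2 ± 88.39.

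Across all 26 libraries, the genes with the profile nearest to each factor were found by the root mean square distance of centred log2 CPM over 9953 genes of at least 5 CPM. This is a description, and points share library and depth. Tal1 and Sox7 were the closest pair among the 10 factors, at a distance of 0.209, and Sox7 was also the gene nearest to Tal1 among all compared. Sox7 itself lay nearest to F11r (0.165), Icam1 (0.1948) and Esam (0.2022), genes of junction and adhesion proteins. Fli1 was nearest to Ehd4, Lmo7 and Pecam1 (0.2285 to 0.2608), Sox17 to Plcg2, Adh7 and Ecscr (0.3175 to 0.3283), and Sox18 to Rasgrf2, Gja5 and Arap3 (0.2696 to 0.2721). Gata2 was nearest to Tek, Ptprb and Stab1 (0.2503 to 0.2517), genes of endothelial receptors. Vezf1 had Akap11, Aff4 and Epc2 (0.1629 to 0.1811), Erg had Mgea5, Cebpg and Cd47 (0.1904 to 0.207), and Gata6 had Luc7l2, Mill2 and Rabgap1 (0.2235 to 0.2324). Ets1 had Eif1a, Atf4 and Itga5 (0.3674 to 0.3842), the widest distances of the 10.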

How the data were processed

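RNA sequencing libraries were made with the NuGEN Ovation Ultralow V2 kit, per the labels' protocols, from lysis-buffer flushes of mouse aorta and from the vessel left after the flush. The authors deposited raw counts per gene symbol. HISAT2 2.0.3, HTSeq and DESeq2 1.14.1 and the build GRCm38 are named in the submitters' processing notes, while neither annotation nor strand setting is stated there. The authors also deposited tables of log2 fold changes and adjusted p-values per comparison, which are quoted only where named. Groups follow the sample labels, although the table's headers give 0 h where the labels give 3 h.

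Counts of 26 libraries were fitted together in edgeR 4.0.16 (R 4.3.3, limma 3.58.1) by the quasi-likelihood test, with TMM scaling, filterByExpr and no covariate. P-values were two-sided and adjusted by Benjamini-Hochberg over 13884 genes, with a threshold of 0.05. The SE is the log2 fold change divided by the root of F. Log2 CPM used a prior count of 2. Of the 21119 genes, 2407 had no count in any library. Total counts set the precision of each value, and PCR duplicates are not marked, so counting error is a lower limit.

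On data simulated for the injured 48 h against uninjured comparison over 13270 genes, the test recovered 42 of 94 genes changed by 1 and 52 of 97 changed by 2 on the log2 scale, with 3 false calls. All other genes were left unchanged there, whereas 42.7% of genes were called in the data. These counts therefore do not give the recovery or the false calls of the real comparison. The alternatives were DESeq2 1.42.0, other scalings, no filter on low counts, 2 groups only, batch as a term, each batch alone, thinned counts, the mouse as a block, and each library left out. Scaling to the endothelial markers was added after seeing the data. The 48 h groups are paired because they come from the same animal. Over all genes, the deviations of the injured and uninjured flush of a mouse from their group means correlated between -0.127 and 0.207 in 9 mice.

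The members and gene lists were chosen with earlier results of these data known. All 10 factors were named in every comparison, with up to 3 genes of each list by smallest p among those called, and the 3 nearest profiles to each factor. Some further values of those genes in other comparisons are given beside them.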

Additional observations from a re-analysis of the deposited data

Results flagged for a closer look

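Of 30 groups of 4 to 10 libraries tested for a library far from the rest, 4 held one, and chance flags about 1 in 20. Sox7 stood at 262.6 CPM in the uninjured flush of mouse E1C, against 183.6 to 211.7 in the other 8. Vezf1 stood at 209.0 CPM in the uninjured flush of mouse E3A, below the other 8. Gata6 stood at 281.5 CPM and Tal1 at 32.27 CPM in the injured 48 h flush of mouse E2A, the highest and lowest of that group, in the library with the most fibroblast, mesothelial and macrophage markers.

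The difference from the uninjured flush was not the same at 48 h and at 3 h for 5 factors. That difference mixes injury with aortic segment, and at 3 h also with time and animal. Since both differences share the uninjured libraries, the change between them is the comparison of the injured 48 h with the injured 3 h flush. It was -0.47 for Erg, -0.41 for Fli1, -0.98 for Ets1, -0.62 for Sox7 and -0.70 for Vezf1 on the log2 scale, by edgeR's quasi-likelihood test.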

How the results depend on the processing

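Most values kept their direction and side of the threshold when the fit, scaling, filter or libraries were changed. Every turned sign is given below as a value or a range, and lost or gained calls of factors that are not in the report follow at the end, other than those of single batches, where 52 values lost a call and 1 gained one. Scaling to the endothelial markers, chosen after seeing the data, changed most. It called 3 (injured 48 h against uninjured), 3 (48 h against 3 h) and 4 (uninjured against wall) of the 10 factors and, over all genes, 6039 (48 h against 3 h), 10277 (injured 48 h against wall), 11343 (injured 3 h against wall) and 12106 (uninjured against wall). It turned the sign of these log2 fold changes: Erg 0.20, Fli1 0.0046, Sox18 0.19 and Tal1 0.0345 (injured 48 h against uninjured), Fli1 -0.23, Sox7 -0.0486 and Tal1 -0.15 (injured 3 h against uninjured), Erg 0.18, Fli1 0.24, Sox7 0.0127, Sox17 0.47, Sox18 0.60, Gata6 0.55 and Tal1 0.19 (48 h against 3 h), Erg -1.63, Fli1 -0.16, Ets1 -1.30, Sox7 -0.0489, Gata2 -0.0587 and Gata6 -1.79 (injured 48 h against wall), Erg -1.81, Fli1 -0.39, Ets1 -0.94, Sox7 -0.0617, Sox18 -0.15, Gata2 -0.69, Gata6 -2.35 and Tal1 -0.0817 (injured 3 h against wall) and Erg -1.83, Fli1 -0.16, Sox7 -0.013 and Gata6 -1.39 (uninjured against wall). It moved the median of all genes by 0.42, -0.24, 0.66, -2.07, -2.73 and -2.49 in the 6 comparisons in the order of the report, with the wall comparisons as injured 48 h, injured 3 h and uninjured, so that 86.6%, 39.5%, 96.8%, 7.9%, 6.6% and 9.6% of calls were higher, against 57.8%, 59.2%, 53.1%, 61.9%, 55.0% and 51.0%.

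Library totals alone called 2 factors (48 h against 3 h) and turned Fli1 -0.18 and Tal1 -0.0991 (injured 3 h against uninjured), Sox17 0.0598, Sox18 0.23 and Gata6 0.079 (48 h against 3 h) and Ets1 0.11 (uninjured against wall). They moved the median of all genes by -0.18, 0.24, 0.25 and 0.18 (injured 3 h against uninjured, 48 h against 3 h, and injured 48 h and uninjured against wall), and 40.8%, 82.0% and 75.2% of calls in the first 3 of these were higher.

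Other settings turned only uncalled values: size factors by median of ratios, Fli1 -0.0645 (injured 3 h against uninjured); DESeq2, Fli1 -0.0638 (injured 3 h against uninjured); only the 2 groups compared, Fli1 -0.0389 (injured 3 h against uninjured) and Gata2 -0.0205 (48 h against 3 h); batch as a term, Gata2 -0.0074 (48 h against 3 h); thinned to equal depth, Fli1 -0.043 (injured 3 h against uninjured) and Ets1 0.19 (uninjured against wall).

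Batch 1 alone called 2 (injured 48 h against uninjured), 2 (injured 3 h against uninjured) and 1 (48 h against 3 h) factors and 2173 (injured 48 h against uninjured), 679 (injured 3 h against uninjured), 464 (48 h against 3 h), 1201 (injured 48 h against wall), 1471 (injured 3 h against wall) and 2329 (uninjured against wall) genes, and turned Erg -0.15 (injured 3 h against uninjured) and Sox17 0.19 and Sox18 0.67 (48 h against 3 h). Batch 2 alone called 1 (injured 48 h against uninjured), 0 (injured 3 h against uninjured) and 0 (48 h against 3 h) factors and 632 (injured 48 h against uninjured), 575 (injured 3 h against uninjured), 141 (48 h against 3 h), 1013 (injured 48 h against wall), 1417 (injured 3 h against wall) and 1771 (uninjured against wall) genes, and turned Fli1 -0.0089 and Sox18 0.37 (injured 3 h against uninjured), Gata2 -0.31 (48 h against 3 h) and Ets1 0.21 (uninjured against wall). Batch 3 alone called 1 (injured 48 h against uninjured), 2 (injured 3 h against uninjured) and 0 (48 h against 3 h) factors and 1287 (injured 48 h against uninjured), 1048 (injured 3 h against uninjured), 167 (48 h against 3 h), 1427 (injured 48 h against wall), 1417 (injured 3 h against wall) and 1968 (uninjured against wall) genes, and turned Sox17 -0.0388 (injured 48 h against uninjured), Fli1 -0.0305 and Sox17 -0.11 (injured 3 h against uninjured), Sox17 0.0731, Sox18 0.0853 and Gata6 0.23 (48 h against 3 h) and Gata6 -0.14 (injured 3 h against wall). Each batch holds fewer libraries, 1 of the wall in each and 1 at 3 h in batch 3.

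With each library left out in turn, 6 to 7, 4 to 5, 4 to 5, 7 to 9, 8 to 9 and 9 to 9 factors and 5308 to 6283, 2818 to 4067, 2055 to 2729, 3622 to 5147, 4683 to 6101 and 5625 to 7326 genes were called in the 6 comparisons. The sign of uncalled values changed for Fli1 -0.0641 to 0.0596 (injured 3 h against uninjured), Gata2 -0.0652 to 0.0689 (48 h against 3 h), Sox18 -0.16 to 0.15 (48 h against 3 h) and Ets1 -0.20 to 0.0719 (uninjured against wall). With the mouse as a replicate block, 6, 8 and 9 factors and 5827, 3467 and 5906 genes were called (injured 48 h against uninjured, and injured 48 h and uninjured against wall), and beside Erg and Gata6 against the wall no call of a factor changed. Tal1 in injured 48 h against uninjured, uncalled in the report, was called with DESeq2 (-0.38, adjusted p = 0.0289), median-of-ratios size factors (-0.39, adjusted p = 0.0349), 2 groups only (-0.39, adjusted p = 0.0494), batch as a term (-0.36, adjusted p = 0.0387) and without the injured library of mouse E1C (-0.39, adjusted p = 0.0426). Vezf1 in injured 3 h against wall was called lower with DESeq2 (-0.27, adjusted p = 0.0113), median-of-ratios size factors (-0.27, adjusted p = 0.0267) and no filter (-0.26, adjusted p = 0.0304). Ets1 in injured 48 h against wall was called higher with library totals alone (1.01, adjusted p = 0.0131), 2 groups only (0.69, adjusted p = 0.0279), batch as a term (0.76, adjusted p = 0.0498) and thinned counts (0.93, adjusted p = 0.0207), and Gata6 there with library totals alone (0.52, adjusted p = 0.0279). Scaling to the endothelial markers left Sox17 (0.37 and 0.28), Sox18 (0.26), Gata2 (0.19) and Tal1 (0.11 and 0.07) uncalled in comparisons with the wall where they were called. The causes of these changes were not tested.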
